A study of Homo sapiens with 6 samples.

Results

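MAL2, RAB25, CRB3, LLGL2, PARD6B, PARD3, PRKCZ, PRKCI, SCRIB and EZR were described here as genes of apical polarity and apical transport. These 10 genes were taken by symbol from a table of 26485 rows, and all 10 were found and passed the filter on low counts, which left 14405 genes tested. The RNA came from HuCCT1, a human cell line established from a cholangiocarcinoma, a cancer of the bile ducts. Polyadenylated RNA was sequenced in 3 libraries (a, b and c) of CRISPR clone 22, labelled AQP1 KO, and in 3 libraries (a, b and c) of CRISPR clone 1, labelled WT. Each genotype was 1 clone, so genotype and clone cannot be told apart. The labels do not name the letters as separate cultures; the p-values below therefore rest on a spread among libraries that may be technical. Both clones were grown on plastic in serum-containing DMEM-F12, per the labels, and no other agent was named.

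Epithelial cells hold an apical surface, which faces a lumen such as that of a bile duct, apart from the basal and lateral surfaces. The Crumbs complex and the PAR complex (PAR-3, PAR-6 and atypical protein kinase C) mark the apical side, and the Scribble module (SCRIB, the LGL proteins and the DLG proteins) marks the basolateral side. Each set keeps the other out, with atypical protein kinase C phosphorylating LGL. Apical membrane proteins reach their surface through recycling endosomes that carry RAB11 family GTPases and through MAL family proteolipids, and ezrin ties the apical membrane to actin in microvilli. In human carcinoma lines, the repressor ZEB1 is known to lower CRB3 and LLGL2.

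Levels are given in CPM (counts per 1000000 counts in the library) as mean ± SD with n = 3 libraries per clone. Folds and log2 fold changes come from the edgeR fit, which also scales the libraries by TMM factors. A fold therefore differs slightly from the ratio of the mean CPM values printed beside it. Library totals were 36925338 to 41724447 counts. AQP1, the targeted water channel gene, had 10, 7 and 7 counts in KO libraries a, b and c, and 2, 8 and 10 counts in WT libraries a, b and c (log2 fold change 0.27, SE 0.63, edgeR quasi-likelihood test with Benjamini-Hochberg adjustment, adjusted p = 0.715). AQP1 was too low in both clones to pass the filter, with means of 0.202 CPM in KO and 0.161 CPM in WT. At that level, and because an edited gene can keep its transcript, AQP1 counts are no test of the genotype. All 5 cholangiocyte markers were lower in KO at an adjusted p under 0.05, beside 37.2% of all genes tested. Their summed levels were 1806 to 1837 CPM in KO libraries and 3096 to 3171 CPM in WT libraries. Most of the KO sum was KRT7, which was 1.13-fold lower (1613 ± 12.5 CPM in KO and 1751 ± 38.3 CPM in WT). EPCAM was 12.35-fold lower (40.7 ± 1.41 CPM in KO and 484 ± 6.24 CPM in WT) and KRT19 8.39-fold lower (93.5 ± 4.59 CPM in KO and 756 ± 13.8 CPM in WT), within the range of the 5 largest falls among the 10 genes. The 6 fibroblast markers had sums of 27.8 to 32.7 CPM in KO and 15.0 to 17.3 CPM in WT. Of the 6, 4 were tested, and 3 of them were higher in KO, beside 37.1% of all genes tested. These were LUM (log2 fold change 1.65), PDGFRB (1.99) and DCN, which had 32, 36 and 39 counts in the KO libraries, against 0, 0 and 4 in the WT libraries, and could pass the filter only through KO. COL1A1 did not pass, and COL1A2 (0 CPM in KO and 0.0484 CPM in WT) and COL3A1 (0.0571 CPM in KO and 0.0162 CPM in WT) were near 0. For 5 hepatocyte markers the sums were 68.5 to 74.7 CPM in KO and 52.0 to 55.8 CPM in WT, nearly all of it SERPINA1, which rose (70.9 ± 3.34 CPM in KO and 53.5 ± 1.92 CPM in WT), with TTR at 0 counts throughout. For 5 immune markers they were 203 to 210.0 CPM in KO and 107 to 112 CPM in WT, nearly all of it CD68, a lysosomal gene of macrophages, which rose (207 ± 3.83 CPM in KO and 109 ± 2.91 CPM in WT, adjusted p = 4.46e-12, edgeR quasi-likelihood), with the leukocyte gene PTPRC at 0 counts throughout. For 5 endothelial markers they were 2.15 to 3.06 CPM in KO and 2.09 to 2.47 CPM in WT. The part of these markers in the results below was not tested, and in bulk RNA fewer cells of a type and less RNA per cell cannot be told apart.

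MAL2 and RAB25 of apical transport, the Crumbs gene CRB3, the LGL gene LLGL2 and the PAR-6 gene PARD6B were far lower in the KO clone, while PARD3, PRKCZ and PRKCI changed by less than 1.5-fold. Of the 10 genes, 7 fell and 2 rose at an adjusted p under 0.05, and SCRIB did not pass. Over all genes tested, 37.2% fell and 37.1% rose at that threshold (74.4% in either direction), so the count of calls lies near this background. In 8 of the 10 the KO and WT libraries did not overlap, against 77.3% of all genes tested, which is also near the background. Falls of at least 4-fold were made by 5 of the 10 genes, against 3.33% of all genes tested. Falls of at least 2-fold were made by 6 of the 10, against 9.05% of all genes tested, with EZR only just past that size. The 10 genes were chosen with earlier results of these data known, so these shares describe the genes and are no test of them as a set. The median log2 fold change of the 10 genes was -1.66, and that of all 14405 genes was 0.0056.

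**Figure D1:**
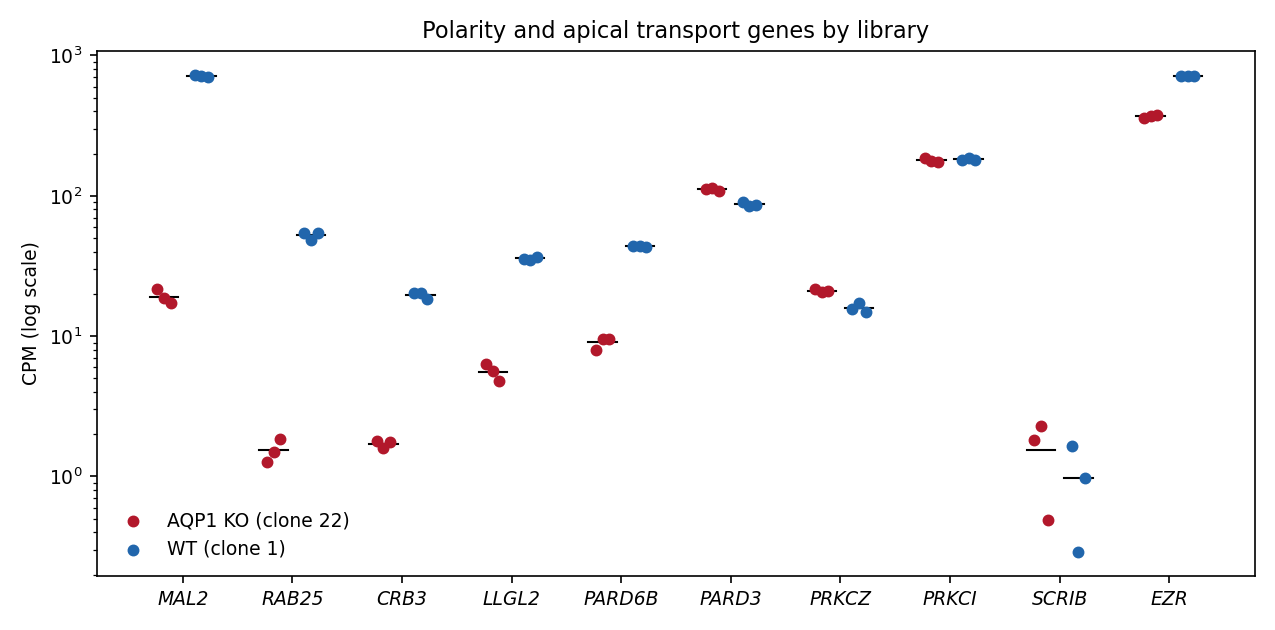
Level of each of the 10 genes in CPM on a log scale, with 1 point per library, the 3 AQP1 KO libraries (red) left of the 3 WT libraries (blue) and a bar at the mean. MAL2, RAB25, CRB3, LLGL2, PARD6B and EZR lie lower in every KO library than in any WT library, PARD3 and PRKCZ lie higher, and the groups overlap for PRKCI and SCRIB.

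MAL2 (chromosome 8, 119208363 to 119245673, GRCh38) encodes a membrane proteolipid required for transcytosis from the basolateral to the apical surface in hepatic cells. It stood at 21.6, 18.6 and 17.2 CPM in KO libraries a, b and c, against 729.9, 712 and 706 CPM in WT libraries a, b and c. Every KO library lay far below every WT library. The mean was 19.1 ± 2.24 CPM in KO and 716 ± 12.4 CPM in WT. The fit put MAL2 38.8-fold lower in KO (log2 fold change -5.28, SE 0.056, edgeR quasi-likelihood with Benjamini-Hochberg adjustment, adjusted p = 7.95e-17). By mean CPM, MAL2 ranked 7657 of the 26485 rows in KO and 145 in WT, and its log2 fold change ranked 52 from the lowest of 14405. Its relative MAL, which sorts apical cargo in kidney cells, was too low to be tested, with 2, 0 and 0 counts in KO libraries a, b and c and 4, 6 and 15 counts in WT libraries a, b and c. The ratio of summed MAL counts, adjusted for library totals, was 0.0833, KO over WT. Its exact 95% counting interval was 0.00956 to 0.334 and covers counting error only.

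RAB25 (chromosome 1, 156061160 to 156070504) encodes the epithelial member of the RAB11 GTPases of the apical recycling endosome. It had 1.27, 1.49 and 1.84 CPM in KO libraries a, b and c, from 52 to 68 counts, against 54.5, 48.2 and 54.2 CPM in WT libraries a, b and c. The groups were far apart. RAB25 averaged 1.54 ± 0.287 CPM in KO and 52.3 ± 3.53 CPM in WT, 35.5-fold lower in KO (log2 fold change -5.15, SE 0.102, adjusted p = 3.3e-14 in the same edgeR test). Its broadly expressed relatives moved the other way by small amounts. RAB11A had 166 ± 4.51 CPM in KO and 123 ± 4.21 CPM in WT (log2 fold change 0.38, SE 0.032), and RAB11B had 115 ± 5.55 CPM in KO and 91.2 ± 4.0 CPM in WT (log2 fold change 0.29, SE 0.039).

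Set beside each other per kilobase of principal transcript, RAB25 made up 1.37 ± 0.221% of the 3 RAB11 family transcripts in KO and 37.9 ± 1.13% in WT. RAB11B held 65.3 ± 1.40% in KO and 41.9 ± 0.878% in WT. The log2 ratio of RAB25 to RAB11A counts was -6.73 ± 0.292 in KO and -1.24 ± 0.124 in WT, a difference of -5.49, and that of RAB25 to RAB11B differed by -5.40. Ratios of this kind were compared for 10 gene pairs with a two-sided exact permutation test over libraries, which with 3 against 3 cannot go below p = 0.1. That smallest p was reached in 9 of the 10 pairs (0.111 after Benjamini-Hochberg adjustment over the 10), each with 3 of 3 KO libraries outside the WT range.

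CRB3 (chromosome 19, 6463777 to 6467221) encodes the Crumbs protein of mammalian epithelia. Its level was 1.79, 1.59 and 1.76 CPM in KO libraries a, b and c, against 20.4, 20.1 and 18.4 CPM in WT libraries a, b and c. The 3 libraries of each clone lay close together and the clones did not overlap. CRB3 averaged 1.71 ± 0.108 CPM in KO and 19.6 ± 1.05 CPM in WT, 11.9-fold lower in KO (log2 fold change -3.57, SE 0.105, adjusted p = 1.69e-12, edgeR quasi-likelihood). The other Crumbs genes were near 0, with CRB1 at 0.0653 CPM in KO and 0.00799 CPM in WT, and CRB2 at 0.0245 CPM in KO and 0.0329 CPM in WT. DENND1C, a gene on the opposite strand whose exons share 15 bases with those of CRB3, also fell, with 1.99 ± 0.305 CPM in KO and 20.9 ± 0.441 CPM in WT (log2 fold change -3.45). Whether counting used strand is not stated, so reads in the shared bases cannot be assigned to either gene.

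Of the cytoplasmic partners of Crumbs, INADL, MPP5 and LIN7C fell, by less than CRB3. INADL (now PATJ), a scaffold of the complex, had 41.3 ± 0.984 CPM in KO and 79.8 ± 2.21 CPM in WT (log2 fold change -1.0, SE 0.044). MPP5 (now PALS1), which binds the Crumbs tail, had 129 ± 5.32 CPM in KO and 187 ± 6.63 CPM in WT, a log2 fold change of -0.59. LIN7C, which joins MPP5, had 38.2 ± 1.44 CPM in KO and 56.3 ± 1.11 CPM in WT, a log2 fold change of -0.61. LIN7B did not pass (log2 fold change -0.20, adjusted p = 0.644, edgeR quasi-likelihood), and LIN7A, which was not tested, had 22, 7 and 10 counts in the KO libraries, against 0 in each WT library. MPP5 and the LIN7 genes were named after their values were seen. Of the 8 Crumbs complex genes 5 were tested, of which 4, CRB3 included, fell and 1 did not pass, with a median log2 fold change of -0.61, beside 37.2% of all genes that fell.

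Start regions were searched because ZEB and SNAI repressors are known to bind the E-box CACCTG, which reads CAGGTG on the other strand. Both spellings were searched in windows from 250 bases before to 50 bases after each RefSeq transcription start (GRCh38.p14), and 20.6% of all 35116 such windows held at least 1 match. The window of CRB3, with its start at 6464271 on the plus strand, held 5 matches, which 0.094% of all windows equalled or exceeded. They began at -228, -208, -147, -89 and -60 from the start, and each is given with 6 bases on either side, the E-box in capitals:
CRB3 at chr19:6464037-6464054: gcaatgCAGGTGtaaggt
CRB3 at chr19:6464057-6464074: ccctcaCACCTGcgcgct
CRB3 at chr19:6464118-6464135: ccgttaCAGGTGcgccca
CRB3 at chr19:6464176-6464193: gaggctCAGGTGcacaag
CRB3 at chr19:6464205-6464222: ctctccCAGGTGagtgac

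The window of RAB25, with its start at 156061160 on the plus strand, held 2 matches, at -41 and 38, a number that 3.49% of all windows reached. PRKCZ, which rose in KO, has 4 starts among these windows, and the window of the most upstream of them, at 2050411 on the plus strand, held 3 matches (at least 3 in 0.635% of all windows), at -204, -103 and -70. The windows of its other starts held 0, 0 and 1 match. The gene ranges of PRKCZ and CRB3 given here begin further upstream, at 2048504 and 6463777, and the bases before those ends were not analysed here. The windows of PRKCI and EZR held none of these letters. MAL2, LLGL2 and PARD6B, which also fell by at least 4-fold, were not analysed here in this respect, nor were PARD3 and SCRIB. The 250 bases before the start of RAB25 and before that start of PRKCZ are printed to set a gene that fell beside one that rose, with E-boxes in capitals:
RAB25 at chr1:156060910-156061159: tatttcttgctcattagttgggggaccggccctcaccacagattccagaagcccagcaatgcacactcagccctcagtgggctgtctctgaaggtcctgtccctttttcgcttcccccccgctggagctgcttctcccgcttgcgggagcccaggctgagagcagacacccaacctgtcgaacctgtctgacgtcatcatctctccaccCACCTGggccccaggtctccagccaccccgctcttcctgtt
PRKCZ at chr1:2050161-2050410: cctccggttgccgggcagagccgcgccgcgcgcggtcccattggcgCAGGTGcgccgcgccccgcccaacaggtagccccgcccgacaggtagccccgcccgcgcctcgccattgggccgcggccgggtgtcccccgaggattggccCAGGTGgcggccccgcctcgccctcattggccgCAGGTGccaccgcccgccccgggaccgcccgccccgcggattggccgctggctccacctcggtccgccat

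A match is a stretch of letters and not a measured binding site, and no binding was measured in these samples. The genes of 4 repressors of this kind, named after their values were seen, all rose, beside 37.1% of all genes. ZEB1 had 83.55 ± 1.32 CPM in KO and 6.25 ± 0.845 CPM in WT (log2 fold change 3.69), and ZEB2 had 7.19 ± 0.428 CPM in KO and 0.526 ± 0.174 CPM in WT (log2 fold change 3.71). SNAI1 had 5.69 ± 0.814 CPM in KO and 3.72 ± 0.579 CPM in WT (log2 fold change 0.56), and SNAI2 had 70.2 ± 1.11 CPM in KO and 49.75 ± 0.495 CPM in WT (log2 fold change 0.44). Their part in the levels of the 10 genes was not tested.

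LLGL2 (chromosome 17, 75525002 to 75575209) encodes the epithelial LGL protein of the Scribble module. It had 6.29, 5.60 and 4.77 CPM in KO libraries a, b and c, against 35.6, 34.8 and 36.8 CPM in WT libraries a, b and c. All KO libraries lay below all WT libraries. LLGL2 averaged 5.55 ± 0.765 CPM in KO and 35.7 ± 0.972 CPM in WT, 6.66-fold lower in KO (log2 fold change -2.74, SE 0.085, adjusted p = 3.03e-12, edgeR quasi-likelihood). LLGL1, its relative, was higher in KO, with 56.1 ± 0.228 CPM in KO and 41.5 ± 1.97 CPM in WT (log2 fold change 0.38, SE 0.052). Per kilobase of principal transcript LLGL2 supplied 10.8 ± 1.35% of the LGL transcripts in KO and 51.35 ± 1.08% in WT, and the log2 ratio of the 2 genes differed by -3.12. With the union of all annotated exons as length, the share of LLGL2 was 7.66% in KO and 42.0% in WT. Which of the 2 genes was larger in WT therefore depended on the length used.

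SCRIB (chromosome 8, 143790925 to 143815773), the scaffold that names the module, could not be placed in either direction. It had 74, 94 and 18 counts in KO libraries a, b and c, or 1.81, 2.30 and 0.487 CPM, against 67, 12 and 41 counts in WT libraries a, b and c, or 1.65, 0.290 and 0.983 CPM. The groups overlapped widely. SCRIB averaged 1.53 ± 0.937 CPM in KO and 0.975 ± 0.681 CPM in WT (log2 fold change 0.61, SE 0.551, adjusted p = 0.333, edgeR quasi-likelihood). Its log2 fold change ran from 0.17 to 1.21 over 14 alternative settings and left-out libraries, without passing in any of them.

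The DLG scaffolds of the same module were split. DLG1 had 176 ± 3.45 CPM in KO and 470.1 ± 4.62 CPM in WT (log2 fold change -1.47, SE 0.025). DLG4, known best from synapses, had 16.6 ± 1.73 CPM in KO and 8.02 ± 0.344 CPM in WT (log2 fold change 0.99, SE 0.092). DLG5 had 1.31 ± 0.670 CPM in KO and 0.477 ± 0.216 CPM in WT (log2 fold change 1.41, adjusted p = 0.0128), a call that was lost without KO library a (adjusted p = 0.0614) or WT library a (adjusted p = 0.053) within a range of 0.000927 to 0.0614 over its alternatives other than the 1.5-fold test, where it was 0.0662. Of the 8 tested genes of the Scribble module 3 rose, 3 fell and 2 did not pass, with a median of 0.26, beside 37.1% of all genes that rose and 37.2% that fell.

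PARD6B (chromosome 20, 50731580 to 50753741) encodes a PAR-6 protein, the adaptor between CDC42, atypical protein kinase C and PAR-3. It had 7.94, 9.61 and 9.51 CPM in KO libraries a, b and c, against 43.6, 44.0 and 43.2 CPM in WT libraries a, b and c. The clones did not overlap. PARD6B averaged 9.02 ± 0.937 CPM in KO and 43.6 ± 0.395 CPM in WT, 5.02-fold lower in KO (log2 fold change -2.33, SE 0.071, adjusted p = 2.67e-12, edgeR quasi-likelihood).

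The other PAR-6 genes did not follow one direction. PARD6A had 3.54 ± 0.0340 CPM in KO and 7.52 ± 0.394 CPM in WT (log2 fold change -1.14, SE 0.124), and PARD6G had 4.32 ± 0.397 CPM in KO and 1.52 ± 0.295 CPM in WT (log2 fold change 1.45, SE 0.1975). Per kilobase of principal transcript, PARD6B fell to 33.0 ± 1.66% of PAR-6 transcripts in KO, against 59.6 ± 1.65% in WT. PARD6A, although its own level fell, held the largest share in KO, at 48.1 ± 2.32%, against 38.0 ± 1.26% in WT. PARD6G reached 18.9 ± 0.762% in KO and 2.47 ± 0.445% in WT. The log2 ratio of PARD6B to PARD6A counts differed between KO and WT by -1.20, and that of PARD6B to PARD6G by -3.76.

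PARD3 (chromosome 10, 34109561 to 34815296), which encodes the PAR-3 scaffold of junctions, was slightly higher in KO. It had 111, 114 and 109 CPM in KO libraries a, b and c, against 90.4, 84.6 and 85.8 CPM in WT libraries a, b and c. The groups did not overlap, but the difference was small, at 1.24-fold (112 ± 2.83 CPM in KO and 86.9 ± 3.05 CPM in WT, log2 fold change 0.31, SE 0.034, adjusted p = 1.73e-06, edgeR quasi-likelihood). PARD3B, its relative, differed by about as much, at 16.4 ± 0.988 CPM in KO and 12.7 ± 0.675 CPM in WT (log2 fold change 0.32). The log2 ratio of PARD3 to PARD3B was 2.76 ± 0.0761 in KO and 2.78 ± 0.0259 in WT, a difference of -0.01 within the spread between libraries (exact permutation test, two-sided, p = 0.8).

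PRKCZ (chromosome 1, 2048504 to 2185395) and PRKCI (chromosome 3, 170222424 to 170305977) encode the atypical protein kinases C zeta and iota, the catalytic part of the PAR complex. PRKCZ had 21.6, 20.5 and 21.0 CPM in KO libraries a, b and c, against 15.6, 17.3 and 14.8 CPM in WT libraries a, b and c. All KO libraries were above all WT libraries, and the rise was 1.27-fold (21.0 ± 0.548 CPM in KO and 15.9 ± 1.31 CPM in WT, log2 fold change 0.35, SE 0.070, adjusted p = 0.000462, edgeR quasi-likelihood). FAAP20, on the opposite strand, shares 590 exonic bases with PRKCZ, or 7.73% of the annotated exon bases of PRKCZ, and stood at 24.6 ± 0.449 CPM in KO and 15.4 ± 1.99 CPM in WT. With the strand setting unknown, the part of FAAP20 reads in the rise of PRKCZ was not tested.

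PRKCI, the more abundant of the kinase genes per length, had 184, 176 and 175 CPM in KO libraries a, b and c, against 179, 185 and 181 CPM in WT libraries a, b and c. The groups overlapped. The means were 179 ± 5.05 CPM in KO and 182 ± 3.19 CPM in WT. With library totals alone the log2 fold change was -0.0233. The main fit, with TMM scaling, put PRKCI 1.05-fold lower in KO (log2 fold change -0.08, SE 0.028, adjusted p = 0.023, edgeR quasi-likelihood). This call was lost in 8 of 14 alternatives. They included RLE scaling (adjusted p = 0.067), DESeq2 (adjusted p = 0.0928) and library totals alone (adjusted p = 0.458), and it was lost without KO library b (0.169), KO library c (0.199) or WT library b (0.073), with adjusted p-values of 0.0175 to 0.458 over the alternatives other than the 1.5-fold test. Of the 8 tested genes of the PAR complex, which include PARD6B, PARD3, PRKCZ and PRKCI, 4 rose and 4 fell, with a median log2 fold change of 0.12, beside 37.1% of all genes that rose and 37.2% that fell.

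**Figure D2:**
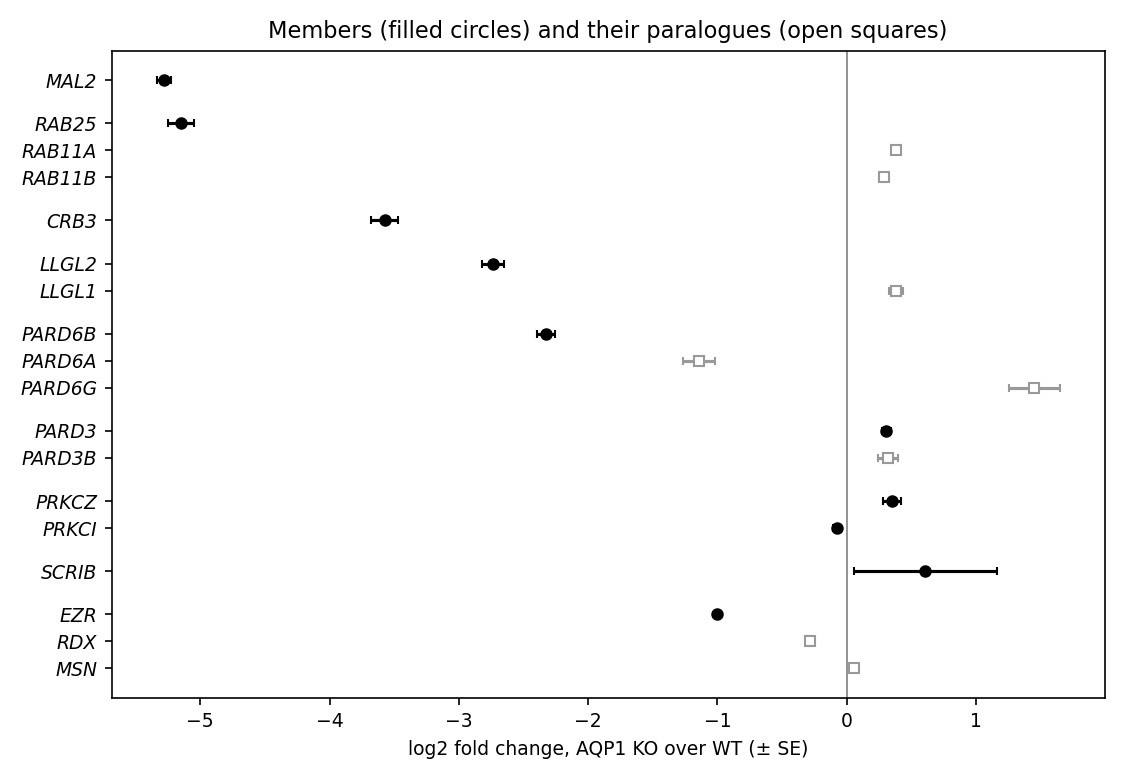
Log2 fold change of AQP1 KO over WT with its standard error from edgeR for the 10 genes (filled circles) and their tested paralogues (open squares), grouped by family. RAB25 at -5.15 and LLGL2 at -2.74 lie far left of RAB11A at 0.38 and LLGL1 at 0.38, and PARD6G at 1.45 lies opposite PARD6B at -2.33.

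EZR (chromosome 6, 158765748 to 158819368) encodes ezrin, the linker of apical membrane and actin and the ERM protein most typical of epithelial microvilli. It had 359, 369.9 and 374 CPM in KO libraries a, b and c, against 709 CPM in each of WT libraries a, b and c. The clones were far apart and each was tight. EZR averaged 367 ± 7.68 CPM in KO and 709 ± 0.0899 CPM in WT, 2.0-fold lower in KO (log2 fold change -1.0, SE 0.024, adjusted p = 2.24e-13, edgeR quasi-likelihood). Over 14 alternatives its log2 fold change was -1.01 to -0.95, at least 2-fold lower in 6 of them.

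The other ERM genes changed less. RDX (radixin) had 486 ± 3.39 CPM in KO and 569 ± 7.9 CPM in WT (log2 fold change -0.28, SE 0.023). MSN (moesin), the most abundant of the ERM genes per kilobase of principal transcript, had 1188 ± 29.2 CPM in KO and 1099 ± 14.2 CPM in WT (log2 fold change 0.06, adjusted p = 0.0473, edgeR quasi-likelihood), a call lost in 7 of 14 alternatives, including those without KO library b (adjusted p = 0.114) and without WT library a (0.12), b (0.141) or c (0.0572), with adjusted p-values of 0.00091 to 0.141 outside the 1.5-fold test. Per kilobase of principal transcript EZR made up 22.5 ± 0.0744% of ERM transcripts in KO and 36.1 ± 0.303% in WT, while MSN made up 57.1 ± 0.278% in KO and 43.9 ± 0.204% in WT. The log2 ratio of EZR to MSN differed by -1.06, and that of EZR to RDX by -0.72.

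**Figure D3:**
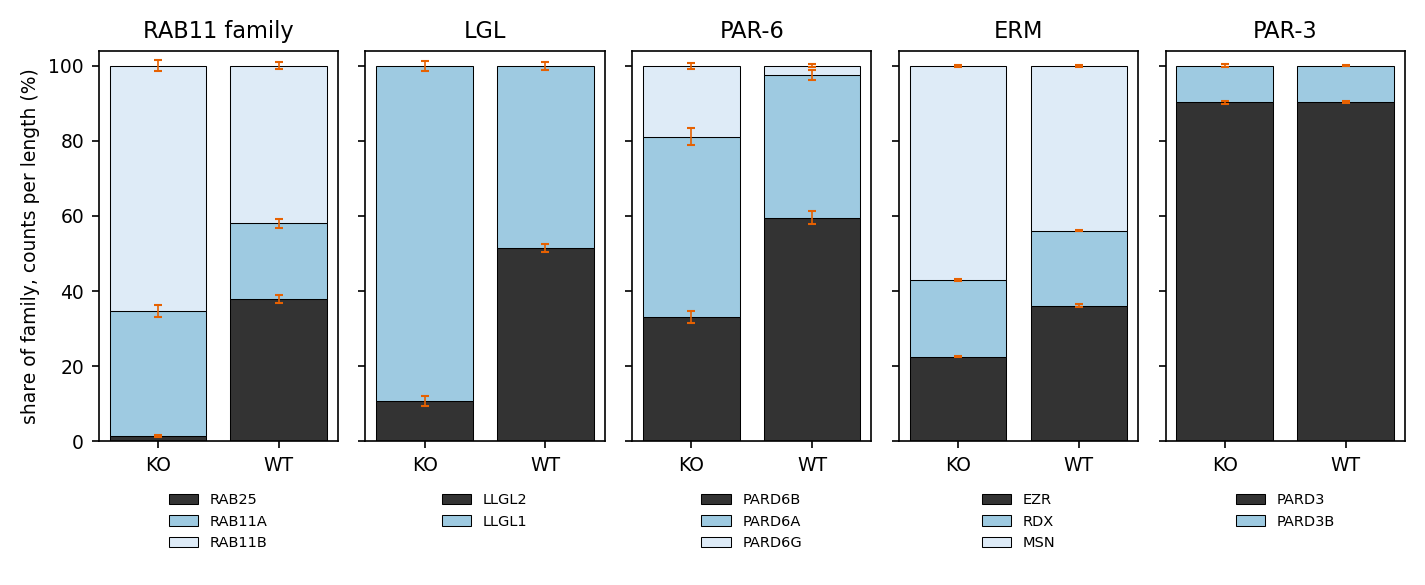
Share of each gene in its family in percent, from counts divided by the length of the principal transcript, as stacked bars with the mean and SD over 3 libraries, AQP1 KO left of WT in each panel. RAB25 makes up 1.37% of RAB11 family transcripts in KO and 37.9% in WT, and LLGL2 10.8% of LGL transcripts in KO and 51.35% in WT, while PARD3 holds 90.3% of PAR-3 transcripts in both.

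Between genes, levels were compared per kilobase of principal transcript. In KO the order from highest to lowest was EZR, PRKCI, PARD3, PRKCZ, MAL2, CRB3, PARD6B, LLGL2, RAB25 and SCRIB, at 119 ± 2.48, 36.1 ± 1.02, 18.6 ± 0.471, 9.04 ± 0.235, 6.78 ± 0.795, 2.34 ± 0.147, 1.95 ± 0.203, 1.60 ± 0.220, 1.38 ± 0.258 and 0.294 ± 0.180 CPM per kilobase. In WT it was MAL2, EZR, RAB25, PRKCI, CRB3, PARD3, LLGL2, PARD6B, PRKCZ and SCRIB, at 254 ± 4.39, 229 ± 0.0295, 47.1 ± 3.18, 36.7 ± 0.645, 26.8 ± 1.44, 14.5 ± 0.507, 10.3 ± 0.279, 9.44 ± 0.0855, 6.84 ± 0.562 and 0.187 ± 0.131 CPM per kilobase. MAL2 thus moved to the fifth place in KO, against the first in WT, and RAB25 to the ninth, against the third. In KO the library ranges of PARD6B and LLGL2 overlapped, as did those of LLGL2 and RAB25, so these neighbours are not ordered beyond their spread. With the union of all annotated exons as length, MAL2 stood above PRKCZ, PARD6B above CRB3 and RAB25 above LLGL2 in KO, and EZR stood above MAL2, PRKCI above RAB25, PARD3 above CRB3 and PARD6B above LLGL2 in WT.

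The wider machinery was read from 9 lists that hold 94 genes beside the 10. Of these 94 genes 85 were tested, of which 39 fell, 30 rose and 16 did not pass, with a median log2 fold change of -0.10, beside 37.2% of all genes that fell and 37.1% that rose. Falls of at least 2-fold were made by 17 of the 85, against 9.05% of all genes tested, and rises of at least 2-fold by 9 of the 85, against 13.7%. The counts of the single lists below stand beside the same shares of all genes. The lists, too, were chosen with earlier results of these data known, so their counts are a description and no test. Of 24 tested genes of apical transport, 12 fell, 8 rose and 4 did not pass. Besides MAL2 and RAB25, falls of at least 4-fold were made by RAB11FIP4, an effector of RAB11 (2.72 ± 0.449 CPM in KO and 24.4 ± 1.31 CPM in WT), by RAB17, an epithelial GTPase (3.07 ± 0.458 CPM in KO and 16.7 ± 0.335 CPM in WT), and by STX3, the apical SNARE syntaxin 3 (60.4 ± 1.14 CPM in KO and 246 ± 2.55 CPM in WT). These 3 were named after their values were seen. The largest rises in the list were in SYTL2, a RAB27 effector (17.15 ± 0.693 CPM in KO and 3.14 ± 0.0363 CPM in WT, log2 fold change 2.39), and RAB27B (96.5 ± 5.45 CPM in KO and 45.4 ± 2.0 CPM in WT, log2 fold change 1.03).

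The exocyst, which tethers vesicles at the membrane, changed little, with 4 rises, 2 falls and 3 genes that did not pass among 9, none by 2-fold. EXOC3 (log2 fold change 0.515) and EXOC2 (0.38) rose most, and EXOC8 (-0.24) and EXOC6 (-0.21) fell most. Of 13 genes of basolateral sorting, 5 fell, 4 rose and 4 did not pass. AP1M2, the epithelial subunit of the AP-1 sorting adaptor, had 15.0 ± 0.615 CPM in KO and 75.4 ± 0.936 CPM in WT (log2 fold change -2.38, SE 0.056), and AP1S3 fell as well (log2 fold change -0.90). AP1S2 (1.31) and the junctional GTPase gene RAB13 (0.45) rose.

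Of 9 genes of the PAR-1 and PAR-4 kinases and their cofactors, which act on polarity proteins, 4 rose, 3 fell and 2 did not pass. MARK2, a PAR-1 kinase, had 61.4 ± 2.32 CPM in KO and 135 ± 1.24 CPM in WT (log2 fold change -1.19), and STRADA fell by less (log2 fold change -0.365). CAB39L rose (7.99 ± 0.980 CPM in KO and 1.81 ± 0.487 CPM in WT). MARK1 had 504 counts in KO and 8 in WT. Adjusted for library totals, the ratio was 65.6, with an exact 95% counting interval of 33.0 to 153. MARK1 could pass the filter only through the KO libraries, so for it a rise was built in.

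Of the 10 tested ERM proteins and partners, 6 fell, 3 rose and 1 did not pass, beside 37.2% of all genes that fell and 37.1% that rose. The scaffold gene SLC9A3R2 (now NHERF2), which joins ezrin to membrane proteins, had 31.6 ± 0.908 CPM in KO and 99.5 ± 2.15 CPM in WT (log2 fold change -1.71). NF2, the ERM-related merlin gene, had 48.6 ± 1.05 CPM in KO and 112 ± 3.085 CPM in WT (log2 fold change -1.26). STK10, an ERM kinase gene, rose (62.2 ± 2.19 CPM in KO and 34.5 ± 1.95 CPM in WT, log2 fold change 0.80), as did PODXL, an apical sialomucin gene (445 ± 7.30 CPM in KO and 317 ± 5.94 CPM in WT, log2 fold change 0.44). Of 14 microvillus genes 9 were tested, of which 7 fell and 2 rose, with a median log2 fold change of -1.39, beside the same 37.2% and 37.1%. COBL, an actin nucleator gene, had 7.51 ± 0.861 CPM in KO and 84.7 ± 3.56 CPM in WT (log2 fold change -3.55), and EPS8L1 had 8 counts in KO and 128 in WT. The rises, EPS8L3 (47 counts in KO and 2 in WT) and MYO7B (47 counts in KO and 10 in WT), could also pass the filter only through the KO libraries, and the MYO7B call was lost without WT library c (adjusted p = 0.0564, in a range of 0.00294 to 0.0564 outside the 1.5-fold test). EPS8L1, in turn, could pass only through the WT libraries.

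**Figure D4:**
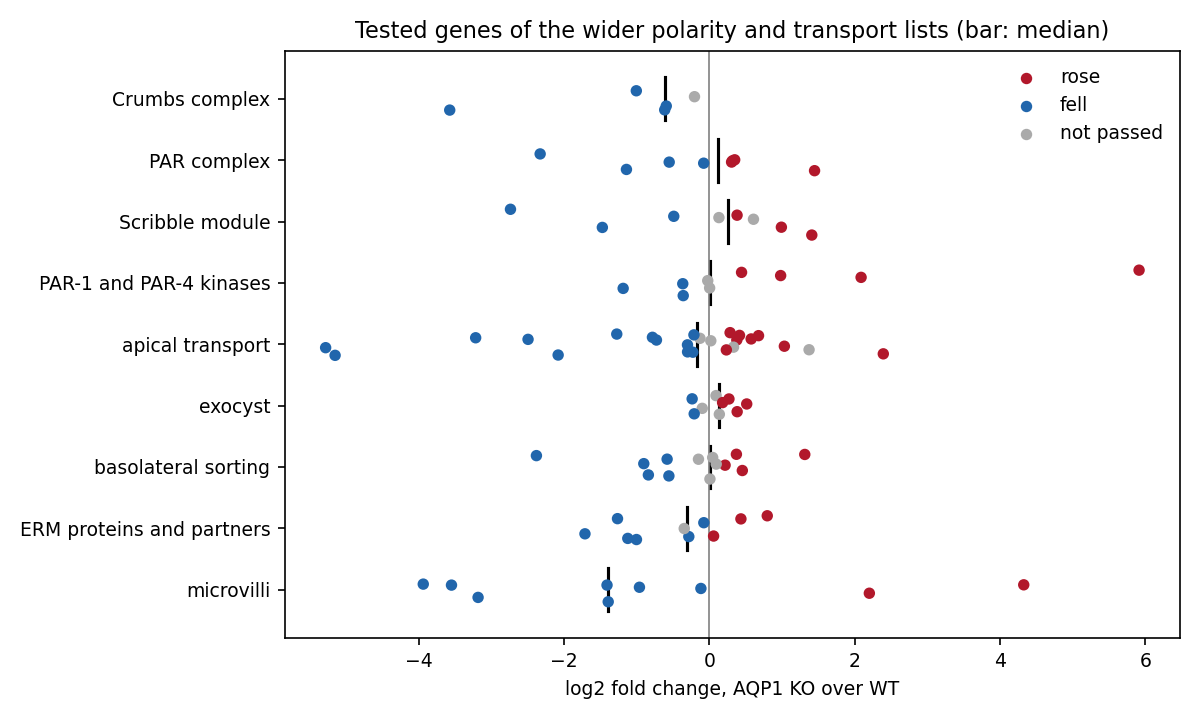
Log2 fold change of AQP1 KO over WT for each tested gene of 9 polarity and transport lists, coloured by whether it rose, fell or did not pass at an adjusted p under 0.05, with a bar at the list median. The medians lie between -1.39 for microvilli and 0.26 for the Scribble module, with MAL2 and RAB25 at the far left of apical transport.

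Each of the 10 genes was also set beside the tested genes that start within 5 Mb of its own start. None of the 32 neighbours of MAL2 had a lower log2 fold change than MAL2, and their median was 0.28, opposite in sign. Of 149 neighbours of RAB25 1 was lower (median -0.11), of 207 of CRB3 2 (median -0.03), of 105 of LLGL2 1 (median -0.32), of 57 of PARD6B 2 (median -0.07) and of 30 of EZR 2 (median 0.07). The stretch around LLGL2 was itself shifted down, by far less than LLGL2. Of the 105 neighbours of LLGL2 64 fell at an adjusted p under 0.05, beside 37.2% of all genes tested. Around SCRIB, which itself did not pass, 48 of 75 neighbours rose at that threshold (median 0.44), beside 37.1% of all genes tested. Around PARD3, PRKCZ and PRKCI the medians were 0.00, 0.03 and 0.12.

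**Figure D5:**
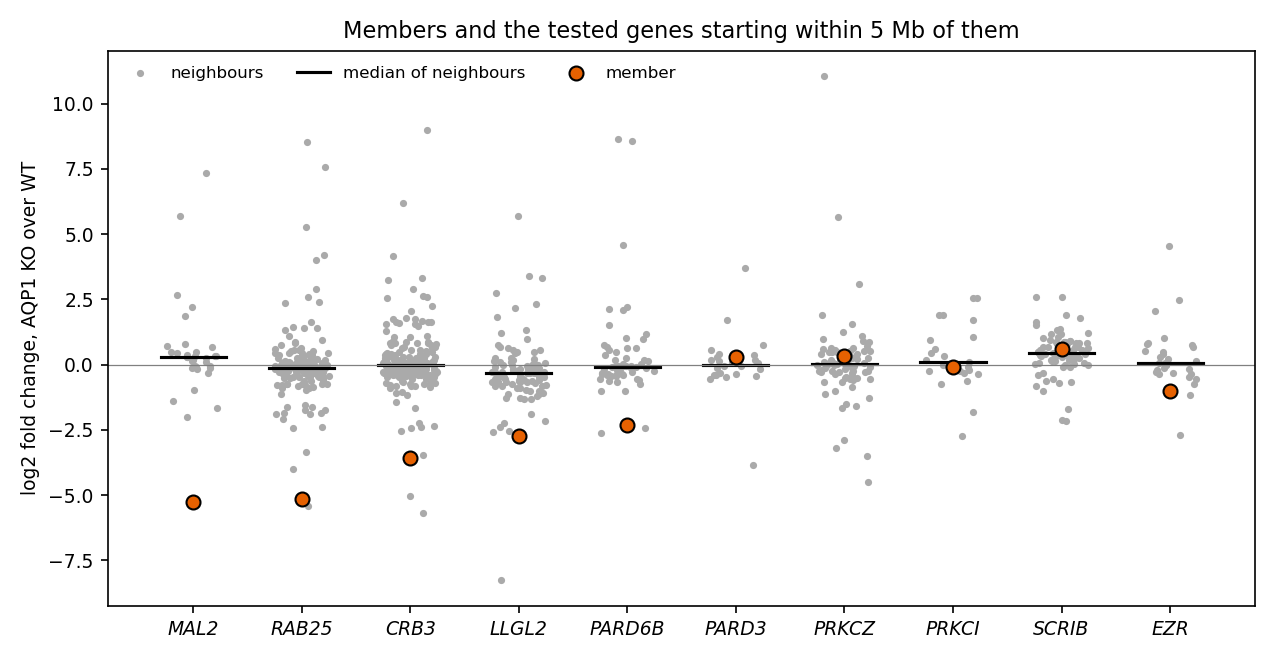
Log2 fold change of AQP1 KO over WT of each of the 10 genes (orange) and of all tested genes starting within 5 Mb of it (grey), with a bar at the median of the neighbours. MAL2 at -5.28, RAB25 at -5.15 and CRB3 at -3.57 lie at the lower edge of their neighbours, whose medians are 0.28, -0.11 and -0.03.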

How the data were processed

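The authors deposited 1 table of whole-number read counts per gene symbol, not normalized. The submitters' processing notes name hg38 as the build and Trimmomatic 0.33, HISAT2, FastQC and edgeR as tools; per the labels' protocols, libraries were stranded TruSeq mRNA. How reads were counted, with which annotation and strand setting, is not given in the sources used here. Library totals were 36925338 to 41724447 counts, and a count of 3, the floor, was 0.0719 to 0.0812 CPM.

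All 14405 genes passing filterByExpr were fitted with edgeR 4.0.16 in R 4.3.3 (TMM, quasi-likelihood F test, KO against WT over 6 libraries, no covariate), with Benjamini-Hochberg adjustment over all of them and a threshold of 0.05. The filter removed AQP1, which was added back for its own value. Each standard error is the size of the log2 fold change over the root of F. Libraries of 1 clone differed by more than sampling noise (chi-square over its degrees of freedom 4.18 to 7.6 in each pair). Log2 ratios used a prior count of 2. Lengths are those of the GENCODE 29 principal transcript, and coordinates and promoter windows are RefSeq's for GRCh38.p14, the build family of hg38. Of the tested genes, 13240 matched a current symbol, 868 an older one and 297 none.

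The 10 genes, the wider lists and the gene pairs were chosen with earlier results of these data known. Named genes are the 10, their paralogues, AQP1 and, in each list, the 2 genes that rose most and the 2 that fell most among those past the threshold; others are said to be outside that rule, apart from overlapping and marker genes and genes listed near 0. Alternatives were RLE, library totals, no filter, 1 CPM in 3 libraries, DESeq2 1.42.0, voom in limma 3.58.1, the letters as a block, each library left out, and glmTreat against 1.5-fold; exon-union lengths were added after seeing the data.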

Additional observations from a re-analysis of the deposited data

How the results depend on the processing

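Against a 1.5-fold change (glmTreat in edgeR), calls over all genes fell to 1970 lower and 2384 higher, against 5364 and 5347, and those of the wider lists to 28 lower and 10 higher, against 46 and 32. Of the 10 genes, glmTreat called 6 lower and 0 higher (0 also at an unadjusted p under 0.05), where edgeR's quasi-likelihood test, DESeq2 and limma-voom each called 2 higher. In the other alternatives 6 or 7 of the 10 were lower and 2 higher. With the letters as a replicate block, 5315 genes were lower and 5284 higher, with 7 and 2 among the 10. Libraries of the same letter deviated from their group means with correlations of -0.0195 to 0.0577, against -0.05 to 0.0409 for different letters. No pairing by letter was seen in these values, which cannot tell whether the letters pair libraries by design. The block changed no call among the named genes except that of MSN (adjusted p = 0.0567, edgeR quasi-likelihood). Of 612 values of single named genes under these alternatives, 578 kept their direction and their side of the threshold and 34 no longer passed, with 0 reversed.

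The difference in the PARD3 to PARD3B ratio was -0.0545 to 0.0127 with each library left out, on both sides of 0. With a prior count of 0.5 that of MAL2 to MAL was -2.11, against -3.39, since MAL is near the floor. With neighbours within 2 Mb, medians were 0.18 around MAL2, -0.15 around RAB25, 0.0265 around CRB3, -0.42 around LLGL2, -0.30 around PARD6B, 0.35 around PARD3, 0.0044 around PRKCZ, -0.0545 around PRKCI and -0.15 around EZR, so those of CRB3, PRKCI and EZR changed sign. With exon-union lengths the share of PRKCZ among atypical protein kinase C transcripts was 8.27% in KO and 6.28% in WT, against 20.04% and 15.7% with principal transcripts. In WT the same lengths put EZR above MSN, at 45.8% and 39.75% of ERM transcripts. In KO MSN stayed above EZR, at 54.4% and 30.0%. Depth limits MAL, CRB1 and CRB2, which were too low to be tested.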

Other observations

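SCRIB varied between libraries of the same clone far more than genes of its level. Its biological coefficient of variation in edgeR was 0.472, and only 12 of the 904 tested genes within 0.5 log2 CPM of its mean level had a higher one, with a median of 0.212 among them. Its 3 libraries per clone spanned 0.487 to 2.30 CPM in KO and 0.290 to 1.65 CPM in WT. Only MIR937, at 0 counts in every library, shared exonic bases with SCRIB on the same strand in GENCODE 29. The cause was not tested. How reads were counted is not given, and its part in the low level and the spread of SCRIB was not tested either.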
